A study of Homo sapiens with 21 samples.

Results

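The genes described here encode the pore-forming and auxiliary subunits of potassium, sodium and voltage-gated calcium channels. They were taken by symbol from the deposited expression table: potassium channel symbols of the form KCN, letters and a number, sodium channel alpha and beta subunits (SCN), and calcium channel alpha1, alpha2delta, beta and gamma subunits (CACN). This gave 134 of the 57820 genes listed, all protein-coding. RNA was sequenced from NLF, a human neuroblastoma cell line, in 7 groups of 3 libraries. The parental line was labelled with DMSO as its treatment. The sgCON line carries Cas9 with a scrambled guide, and YAPKO1 and YAPKO2 are lines in which YAP1, a transcriptional coactivator of the Hippo pathway, was targeted with Cas9. Each of these 3 lines was given 20 nM trametinib, an inhibitor of the MEK1 and MEK2 kinases, or its solvent DMSO for 72 h. Cas9 and a guide were thus shared by all lines except the parental one, and the labels do not say whether a line is a single clone.

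Ion channels set the membrane potential and carry the currents of the action potential. Potassium channels hold the cell near its resting potential and repolarise it, voltage-gated sodium channels carry the fast upstroke, and voltage-gated calcium channels couple depolarisation to calcium entry, secretion and gene expression. Sympathetic neurons and chromaffin cells, the lineage from which neuroblastoma arises, are excitable, and auxiliary subunits adjust the gating, inactivation and membrane density of the pore-forming subunits they bind.

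The promoters of 3 genes are printed because these genes stand at the extremes of the results: KCNK1 was lowered by trametinib in every line, KCNAB1 had the largest fall in YAPKO1, and KCNMA1 the largest fall in YAPKO2. Each is the 250 bases before a RefSeq start site, in GRCh38.p14, on the gene's strand. KCNK1 lies at chr1:233613856-233614105 (plus strand), KCNAB1 at chr3:156290737-156290986 (plus strand, 1 of 5 windows for this gene) and KCNMA1 at chr10:77350762-77351011 (minus strand, 1 of 2 windows). Capitals mark a match to the E-box CACGTG in KCNAB1, 8 bases before the start, and 2 matches to the AP-1 motif TGANTCA in KCNMA1, 134 and 122 bases before the start. KCNK1, with 1 window, held no match to any of the 5 motifs searched, which are described at the end. The KCNAB1 and KCNMA1 windows were chosen after the matches were seen: of the other KCNAB1 windows 1 overlaps the printed one and holds the same E-box, 1 holds an AP-1 match and 2 hold none, and the other KCNMA1 window holds none. Both printed windows lie downstream of another window of their gene. The first window begins at chr3:156120298 for KCNAB1 and lies at chr10:77637759-77638058 for KCNMA1. Which starts these cells use was not tested.
KCNK1: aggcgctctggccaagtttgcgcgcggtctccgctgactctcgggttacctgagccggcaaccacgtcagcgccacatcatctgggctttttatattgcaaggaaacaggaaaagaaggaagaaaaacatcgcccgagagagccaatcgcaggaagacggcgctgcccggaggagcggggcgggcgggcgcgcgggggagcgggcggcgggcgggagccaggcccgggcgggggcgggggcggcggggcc
KCNAB1: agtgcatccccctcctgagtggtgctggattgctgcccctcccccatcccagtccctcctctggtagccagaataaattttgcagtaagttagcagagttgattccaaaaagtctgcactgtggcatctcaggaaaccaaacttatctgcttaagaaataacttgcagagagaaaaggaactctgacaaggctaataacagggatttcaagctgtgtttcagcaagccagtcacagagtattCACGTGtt
KCNMA1: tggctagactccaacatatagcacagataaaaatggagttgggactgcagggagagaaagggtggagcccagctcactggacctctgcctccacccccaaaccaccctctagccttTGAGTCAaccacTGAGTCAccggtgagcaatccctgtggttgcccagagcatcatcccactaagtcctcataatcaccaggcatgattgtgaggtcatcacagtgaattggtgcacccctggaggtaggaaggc

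Levels are FPKM, which are per transcript length, divided by 1 scale factor per library and given as mean ± SD with n = 3. The tables hold no counts, so the depth is unknown. In DMSO the targeted gene YAP1 was at 25.6 ± 1.88 with the scrambled guide, and at 11.7 ± 2.30 and 2.89 ± 0.256 in the YAPKO1 and YAPKO2 lines. The neuroblast marker HAND2 was present, at 61.0 to 101 in the 21 libraries, while TH, which defines catecholamine cells, stayed under an FPKM of 1 in every library. Fibroblast markers summed to between 184 and 907, with the highest values in parental cells. The epithelial markers KRT18 and KRT8 carried a sum of 14.5 to 17.8 in the 6 sgCON libraries and at most 4.54 elsewhere. Only 2 of the 4 epithelial markers reached 1 in any library, and CDH1 was listed at 0 throughout. Blood and endothelial markers summed to at most 0.571. Libraries also differed in the level of GC-rich transcripts. For each library a GC trend was taken as the median log2 deviation of transcripts in the top GC quartile minus that of the bottom quartile. It was lowest in a parental library (-0.60) and highest in replicate 2 of YAPKO2 trametinib (1.34). Replicate 3 of YAPKO1 DMSO (0.68) and replicate 2 of YAPKO2 DMSO (0.62) also stood above their groups. Some fits left out these 3 libraries together. Those fits kept replicate 1 of YAPKO2 trametinib (0.70), so they were not free of libraries with a high trend.

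Few of the channel genes were expressed. The threshold for testing, 3 or more libraries with an FPKM of 1 or more, was reached by 46 of the 134 (34.3%), against 63.3% of all protein-coding genes. Of the other 88, 84 stayed under 1 in every library, 13 of them listed at 0 throughout, and KCND2, KCNJ13, KCNJ3 and KCNK7 reached 1 in only 1 or 2 libraries. Of the 46 genes tested, 26 were at 1 or more in all 21 libraries, and 27 had every group mean under 5. A group mean of 10 or more was reached by 13.

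Potassium channels supplied the highest levels. The voltage-gated alpha subunits, with 10 of 40 genes tested, were led by KCNS3, an electrically silent subunit that modifies the voltage-gated channels it joins, with group means between 96.4 and 214. It was the highest of the channel genes in 6 of 7 groups, with between 21.8% and 40.4% of their summed FPKM. KCNH2, the hERG channel, had group means of 12.4 to 34.1.

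The K2P channels carry background potassium current. Of 15 genes, 3 were tested: KCNK1 with group means of 3.06 to 26.6, the mechanosensitive KCNK2 with 9.20 to 18.4, and KCNK5 with 0.546 to 1.98. Of the 15 inward rectifiers, 2 were tested, and both are the pores of ATP-sensitive channels: KCNJ11 (0.306 to 11.3) and KCNJ8 (2.58 to 4.69). Among the calcium- and sodium-activated channels, 5 of 8 were tested, all with group means of at most 5.08, and KCNT2, KCNN4 and KCNN1 had the highest mean over the groups. Of 16 auxiliary subunits, 7 were tested, led by KCNAB1, a cytoplasmic beta subunit that speeds inactivation of KCNA channels, with group means from 0.755 to 31.7. No KCNA gene reached an FPKM of 1 in any library. KCNMB4 (2.57 to 3.53) and KCNAB2 (1.57 to 4.08) came next.

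SCN9A, the pore of Nav1.7, had the highest sodium channel levels, with group means from 11.7 to 74.9. It made up 65.6% to 70.7% of the sodium channel FPKM in the parental and sgCON libraries, 42.6% to 59.3% in the knockout lines in DMSO and 27.0% to 39.0% in their treated libraries. SCN2A (4.34 to 10.1) and SCN3A (2.52 to 6.84) followed, and 8 of 10 alpha subunits were tested. Of the 4 beta subunits 2 were tested, among them SCN3B (0 to 3.56). Among calcium channel alpha1 subunits 2 of 10 were tested, both of the low-voltage-activated T type: CACNA1H (5.37 to 14.9) and CACNA1G (0.248 to 1.90). The N-type pore CACNA1B, typical of sympathetic neurons, reached at most 0.902. CACNA2D1, which promotes the surface expression of high-voltage-activated channels, had group means of 13.3 to 25.4, and CACNB3, a cytoplasmic beta subunit of the same channels, 16.7 to 28.9. CACNG4 (6.01 to 12.1) and CACNG7 (1.40 to 5.29), 2 gamma subunits that also act on AMPA receptors, came after CACNB3 among the 6 of 12 beta and gamma genes tested.

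**Figure D1:**
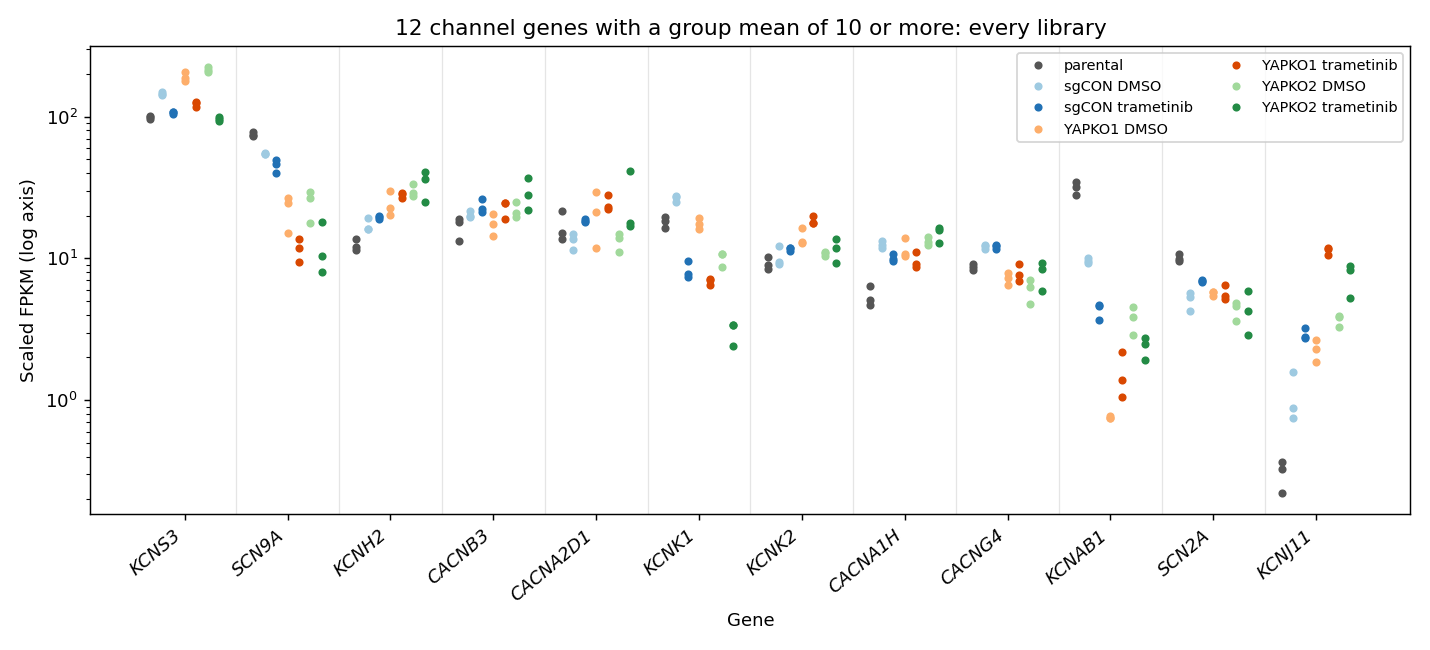
Scaled FPKM (log axis) of 12 of the 13 channel genes with a mean of 10 or more in at least 1 group, ordered from left by their mean over the 7 groups, with 1 point per library and a colour per group. KCNS3 sits highest of the 12, SCN9A steps down from 74.9 in parental cells to 11.7 and 12.1 in the trametinib-treated knockout groups, and KCNJ11 spans from 0.306 to 11.3.

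Order within the top of the list changed between groups. In parental cells KCNS3 (98.8 ± 1.79) was followed by SCN9A (74.9 ± 2.25), and KCNAB1 (31.7 ± 3.25) lay below both, with no overlap of libraries. In sgCON DMSO KCNS3 (145 ± 3.75) lay above SCN9A (54.7 ± 0.580), which was followed by KCNK1 (26.6 ± 1.38), again with no overlap. In the DMSO groups of both knockout lines KCNH2 lay below KCNS3, at 24.3 ± 4.96 and 29.8 ± 3.05, and did not differ beyond its spread from SCN9A, at 22.2 ± 6.23 and 24.5 ± 6.12. The summed FPKM of the 134 genes was 477 ± 5.74 in sgCON DMSO and 425 ± 14 in sgCON trametinib, 513 ± 12.9 and 455 ± 9.33 in YAPKO1, and 530 ± 5.49 and 443 ± 27.7 in YAPKO2, so each treated library lay below each DMSO library of its line. Without KCNS3 the sums overlapped between DMSO and trametinib in each line, at 331 ± 6.82 and 319 ± 12.3 in sgCON, 322 ± 14 and 332 ± 11.4 in YAPKO1, and 316 ± 11 and 347 ± 30.6 in YAPKO2.

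The GC trend also differed between groups. It was -0.476 to -0.376 in sgCON DMSO, below sgCON trametinib (-0.28 to -0.146) and YAPKO2 DMSO (0.089 to 0.62) without overlap. In YAPKO1 and YAPKO2 the DMSO and trametinib ranges overlapped, as did YAPKO1 DMSO with sgCON DMSO. Over 15615 genes the Spearman rho of change against transcript GC was 0.25, 0.259 and 0.226 with trametinib in sgCON, YAPKO1 and YAPKO2. For YAPKO1 and YAPKO2 against sgCON it was 0.346 and 0.439. Some of the highest genes followed the GC trend within groups. KCNH2, whose longest transcript has 66.8% GC, was at 36.6, 40.6 and 24.9 in the 3 YAPKO2 trametinib libraries, whose GC trends were 0.70, 1.34 and -0.25. SCN9A (38.7% GC) was at 10.4, 8.04 and 18.0 in the same libraries, and CACNA2D1 (37.2% GC) at 17.8, 17.0 and 41.5. The GC-rich gene was thus highest and the GC-poor genes lowest in the library with the highest trend, as they also were in YAPKO1 DMSO replicate 3, with KCNH2 at 29.9, SCN9A at 15.2 and CACNA2D1 at 11.8. How much of any group difference in these genes comes with the GC trend was not tested. With a spline correction for transcript GC content, 69 of the 73 calls of a channel gene in a comparison remained, 4 were lost and 36 were gained, and values for some of these genes are given beside the results. The share of all genes called with the correction is not given here.

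**Figure D2:**
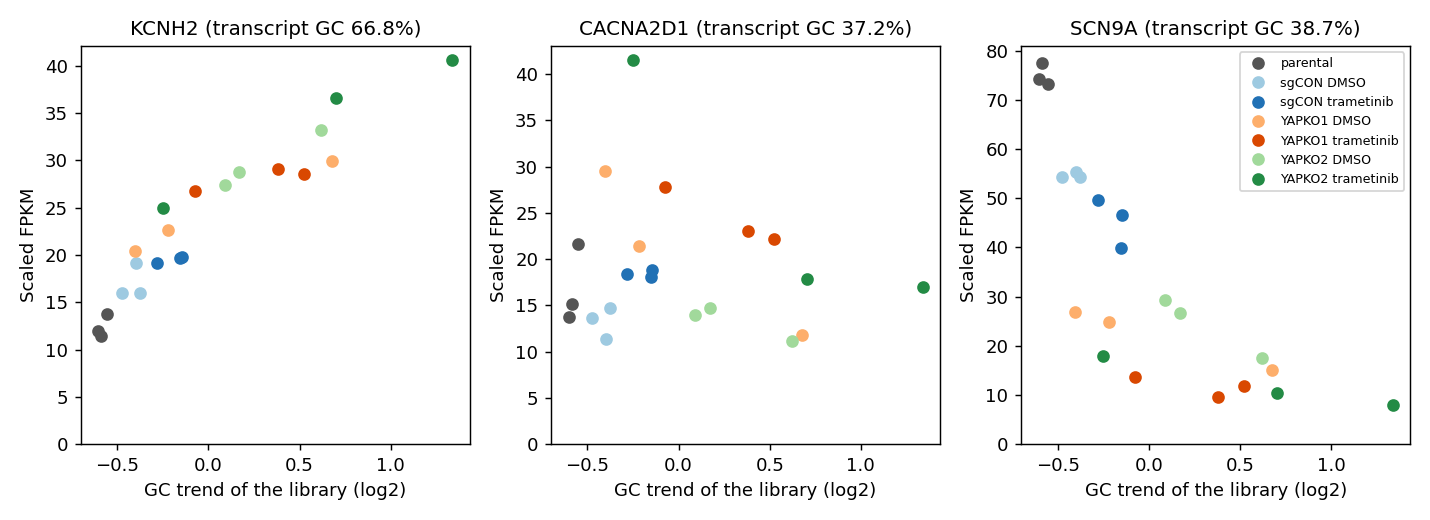
Scaled FPKM of KCNH2, CACNA2D1 and SCN9A in each of the 21 libraries against the GC trend of the library (log2), coloured by group. KCNH2 is highest, at 40.6, in the library with a trend of 1.34, while within YAPKO2 trametinib the GC-poor CACNA2D1 and SCN9A are highest, at 41.5 and 18.0, in the library with a trend of -0.25.

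Trametinib was compared with DMSO within each line. Changes are log2 changes of scaled FPKM + 0.5 ± SE from limma over 16194 genes, and calls were made where the p adjusted by Benjamini-Hochberg was under 0.05. In these bulk samples fewer cells of a type and less RNA per cell cannot be told apart. In sgCON 5 of 46 channel genes were called (10.9%, against 5.17% of all genes tested): 1 rose (2.30% of all genes) and 4 fell (2.87%). In YAPKO1 11 were called (23.9%, against 7.87%), of which 5 rose (4.08% of all genes) and 6 fell (3.79%). In YAPKO2 7 were called (15.2%, against 20.0%), of which 2 rose (8.88% of all genes) and 5 fell (11.1%). Over the 46 genes the median change in sgCON, YAPKO1 and YAPKO2 was 0.00, 0.02 and 0.07, close to the medians of all genes (0.00, -0.01 and 0.00). KCNK1 and KCNS3 fell in all 3 lines and KCNJ11 rose in all 3, and 12 genes were called in at least 1 line. Leaving out YAPKO2 trametinib replicate 3 raised the count in YAPKO2 from 7 to 12, and the GC correction to 13. In YAPKO1 each library left out lowered the count: to 5 without DMSO replicate 1 or trametinib replicate 1, to 6 without trametinib replicate 3, to 7 without either replicate 2 and to 9 without DMSO replicate 3. The shares of all genes called in these settings are not given here, so these counts do not show a change particular to channel genes. Fibroblast markers summed to 436 to 521 in sgCON DMSO and 457 to 583 with trametinib, 219 to 493 and 184 to 266 in YAPKO1, and 380 to 616 and 200.3 to 347 in YAPKO2, and their part in the trametinib results and response differences was not tested.

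KCNK1, the TWIK1 background potassium channel, had the largest falls. Its FPKM was 27.5, 27.3 and 25 in sgCON DMSO and 7.76, 9.58 and 7.40 with trametinib. In YAPKO1 it went from 17.5, 19.3 and 16.2 to 7.07, 6.54 and 7.20, and in YAPKO2 from 8.67, 10.8 and 10.7 to 2.39, 3.40 and 3.39. Every treated library lay below every DMSO library of its line. The changes were -1.64 ± 0.13 in sgCON (limma adjusted p = 5.2e-07), -1.29 ± 0.13 for YAPKO1 (adjusted p = 7.4e-06) and -1.58 ± 0.13 for YAPKO2 (adjusted p = 3.74e-07). All 3 calls held in each setting tried, and the difference of the response from that of sgCON was not called in YAPKO1 (0.35 ± 0.19) or YAPKO2 (0.06 ± 0.19).

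KCNS3, the most abundant of the set, fell by less in sgCON and by more in YAPKO2. In sgCON the libraries stood at 145, 142 and 149 in DMSO and at 108, 108 and 104 with trametinib. In YAPKO1 they went from 206, 188 and 179 to 127, 125 and 118, and in YAPKO2 from 212, 206 and 223 to 96.8, 93.3 and 99. The groups did not overlap in any line, and the treated YAPKO2 libraries were the lowest of the treated ones although their DMSO mean was the highest. The changes were -0.45 ± 0.07 (limma adjusted p = 0.000634), -0.63 ± 0.07 (adjusted p = 1.46e-05) and -1.14 ± 0.07 (adjusted p = 8.38e-09). The test of the difference is given with the other response differences further on.

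KCNJ11, the Kir6.2 pore of the ATP-sensitive potassium channel, rose in each line. It stood at 0.744, 1.59 and 0.877 in sgCON DMSO and at 2.80, 2.73 and 3.23 with trametinib. In YAPKO1 it went from 2.29, 1.86 and 2.64 to 11.6, 10.5 and 11.8, and in YAPKO2 from 3.94, 3.86 and 3.30 to 8.79, 8.27 and 5.24. No treated library overlapped the DMSO libraries of its line, and the 3 YAPKO1 trametinib libraries were the highest of all 21. The changes were 1.16 ± 0.20 in sgCON (limma adjusted p = 0.00163), 2.11 ± 0.20 for YAPKO1 (adjusted p = 3.03e-06) and 0.89 ± 0.20 for YAPKO2 (adjusted p = 0.00416). When only the 6 YAPKO2 libraries were fitted, the YAPKO2 call was lost.

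ABCC8 encodes SUR1, the sulfonylurea receptor that assembles with KCNJ11 into the ATP-sensitive channel, and in RefSeq it is the next protein-coding gene to KCNJ11 on chromosome 11. It was among the partner genes listed outside the set. It was at 0, 0.322 and 0 in sgCON DMSO and at 0.573, 0.941 and 0.960 with trametinib, at 0.835, 0.575 and 0.831 against 5.57, 5.93 and 7.10 in YAPKO1, and at 0.772, 0.410 and 0.582 against 4.28, 3.23 and 4.47 in YAPKO2. It therefore rose in all 3 lines, with changes of 1.15 ± 0.22 (limma adjusted p = 0.00365), 2.43 ± 0.22 (adjusted p = 1.79e-06) and 2.05 ± 0.22 (adjusted p = 4.71e-06), and no groups overlapped. Every sgCON library lay under a scaled FPKM of 1. ABCC8 passed the threshold for testing through the treated knockout libraries, where it was high. At a pseudocount of 0.1 the sgCON change was 2.49 ± 0.44, since the DMSO values lie below the pseudocount of 0.5. KCNJ8, the Kir6.1 pore, gave no call with trametinib, with changes of 0.19 ± 0.20, 0.07 ± 0.20 and 0.00 ± 0.20 in the 3 lines.

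**Figure D3:**
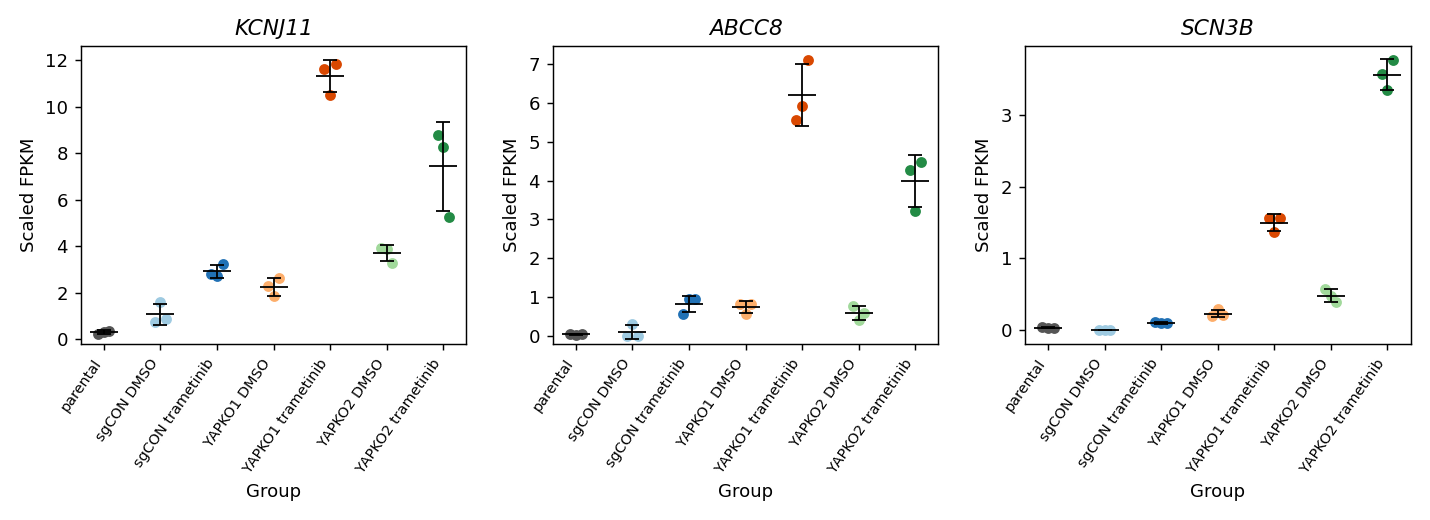
Scaled FPKM of KCNJ11, ABCC8 and SCN3B in each library, with a bar for the group mean and error bars of 1 SD (n = 3). In every line the trametinib libraries lie above the DMSO libraries for all 3 genes. KCNJ11 and ABCC8 peak in YAPKO1 trametinib (11.3 and 6.20), whereas SCN3B peaks in YAPKO2 trametinib (3.56).

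Potassium auxiliary subunits did not move as a group. KCNAB1 fell in sgCON from 9.29, 9.56 and 10.1 to 4.59, 3.70 and 4.70, a change of -1.08 ± 0.18 (limma adjusted p = 0.00155), with no overlap. In YAPKO1 it was at 0.749, 0.747 and 0.771 in DMSO and at 1.38, 2.19 and 1.06 with trametinib, and in YAPKO2 at 4.53, 2.90 and 3.85 and then 2.50, 1.92 and 2.72. The direction was thus upward in YAPKO1 alone. Both calls were weak: 0.66 ± 0.18 for YAPKO1 (limma adjusted p = 0.033, and up to 0.151 when 1 library was left out, with the call kept only without YAPKO1 trametinib replicate 3) and -0.56 ± 0.18 in YAPKO2 (adjusted p = 0.0409, and up to 0.174, with the call lost without YAPKO2 DMSO replicate 1 or 3 or YAPKO2 trametinib replicate 1 or 2). KCNAB3, another beta subunit, fell in both knockout lines (-0.77 ± 0.20 and -0.75 ± 0.20) and had a change of 0.05 ± 0.20 in sgCON. KCNIP4, which binds KCND channels, was called in YAPKO1 (-1.05 ± 0.28) and had changes of -0.98 ± 0.28 in sgCON and -0.75 ± 0.28 in YAPKO2, which were not called (limma adjusted p = 0.0507 and 0.0685). No KCND gene passed the threshold for testing. With the GC correction KCNIP4 was called in all 3 lines, by -0.83 ± 0.18 (adjusted p = 0.0065), -0.90 ± 0.18 (adjusted p = 0.00267) and -0.61 ± 0.18 (adjusted p = 0.0177).

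Several of these calls were near the threshold and were lost when 1 library was left out, mostly for more than 1 choice of library. In YAPKO1 the KCNAB3 call was lost without DMSO replicate 2 or trametinib replicate 1 or 3 (limma adjusted p up to 0.131), and the KCNIP4 call without DMSO replicate 1 or any treated library (up to 0.137). In YAPKO2 the KCNAB3 call was lost without trametinib replicate 2 (adjusted p = 0.0598). KCNN2, the SK2 calcium-activated channel, rose in YAPKO1 from 1.31, 1.40 and 1.72 to 2.96, 2.50 and 3.31, a change of 0.79 ± 0.18. That call was lost without DMSO replicate 1 or trametinib replicate 3 (adjusted p up to 0.0644). KCNH8, of the EAG family of voltage-gated channels, fell in YAPKO1 (-0.74 ± 0.22, limma adjusted p = 0.0448), and the call was lost without DMSO replicate 1 or 2 or trametinib replicate 1 or 2 (up to 0.195).

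Of the 10 sodium channel genes tested, limma called 0 in sgCON, where 2 had an unadjusted p under 0.05, 3 in YAPKO1 and 2 in YAPKO2. Of all genes, 5.17%, 7.87% and 20.0% were called in these 3 lines. SCN9A fell in YAPKO1 from 26.8, 24.8 and 15.2 to 9.51, 13.8 and 11.8, and in YAPKO2 from 29.3, 17.6 and 26.8 to 10.4, 8.04 and 18.0. The YAPKO1 groups did not overlap, whereas in YAPKO2 trametinib replicate 3 lay just above DMSO replicate 2. The changes were -0.87 ± 0.25 (limma adjusted p = 0.0384) and -1.03 ± 0.25 (adjusted p = 0.00694), and -0.27 ± 0.25 in sgCON, where it stood at 54.7 ± 0.580 and then 45.3 ± 4.99. Fitting only the 6 libraries of a line ended both calls. With the GC correction they were -0.73 ± 0.11 (adjusted p = 0.000165) and -0.89 ± 0.11 (adjusted p = 7.41e-06). The uncorrected YAPKO1 call was lost without YAPKO1 DMSO replicate 1 or 2 or trametinib replicate 1 or 3 (adjusted p up to 0.156).

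SCN3B, a beta subunit that alters the gating and trafficking of sodium channels, was listed at 0 in all 3 sgCON DMSO libraries and at 0.105, 0.0882 and 0.0864 with trametinib. It went from 0.182, 0.283 and 0.203 to 1.56, 1.36 and 1.56 in YAPKO1, and from 0.561, 0.471 and 0.385 to 3.57, 3.35 and 3.78 in YAPKO2. No groups of the 7 overlapped, and the 3 treated YAPKO2 libraries were the highest. Only the treated YAPKO1 and YAPKO2 libraries reached an FPKM of 1, so SCN3B passed the threshold for testing through the groups where it was high. The changes were 1.47 ± 0.17 for YAPKO1 (limma adjusted p = 1.94e-05) and 2.07 ± 0.17 for YAPKO2 (adjusted p = 2e-07), and that of sgCON, 0.25 ± 0.17, was not called. At a pseudocount of 0.1 the YAPKO1 change was 2.31 ± 0.34. SCN8A, the Nav1.6 pore, was called in YAPKO1 (0.92 ± 0.26, limma adjusted p = 0.0414), but its call was kept without a library only when DMSO replicate 2 was the one left out, and it was 0.87 ± 0.32 (adjusted p = 0.0711) without the 3 libraries whose GC trend stood above their groups.

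Calcium channel genes gave 1 call with trametinib, in sgCON, where 5.17% of all genes were called. CACNA1G, a T-type pore, stood at 1.17, 0.744 and 1.21 in sgCON DMSO and at 0.153, 0.323 and 0.269 with trametinib, which did not overlap, a change of -1.03 ± 0.23 (limma adjusted p = 0.0107). The call was lost without sgCON DMSO replicate 1 or 3 or trametinib replicate 1 (adjusted p up to 0.0584), and at a pseudocount of 0.1 the change was -1.72 ± 0.35. In YAPKO1 and YAPKO2 the changes were -0.27 ± 0.23 and -0.39 ± 0.23. Of the 6 beta and gamma subunits, limma called 0 in each of the 3 lines, against 5.17%, 7.87% and 20.0% of all genes. At an unadjusted p under 0.05 it had 0, 0 and 2 of the 6. CACNA2D1, the alpha2delta subunit tested, was higher with the drug in each line, by 0.47 ± 0.31, 0.30 ± 0.31 and 0.80 ± 0.31, and none of these was called. With the GC correction 2 of them were called, at 0.61 ± 0.18 in sgCON (adjusted p = 0.038) and 0.94 ± 0.18 in YAPKO2 (adjusted p = 0.000688).

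**Figure D4:**
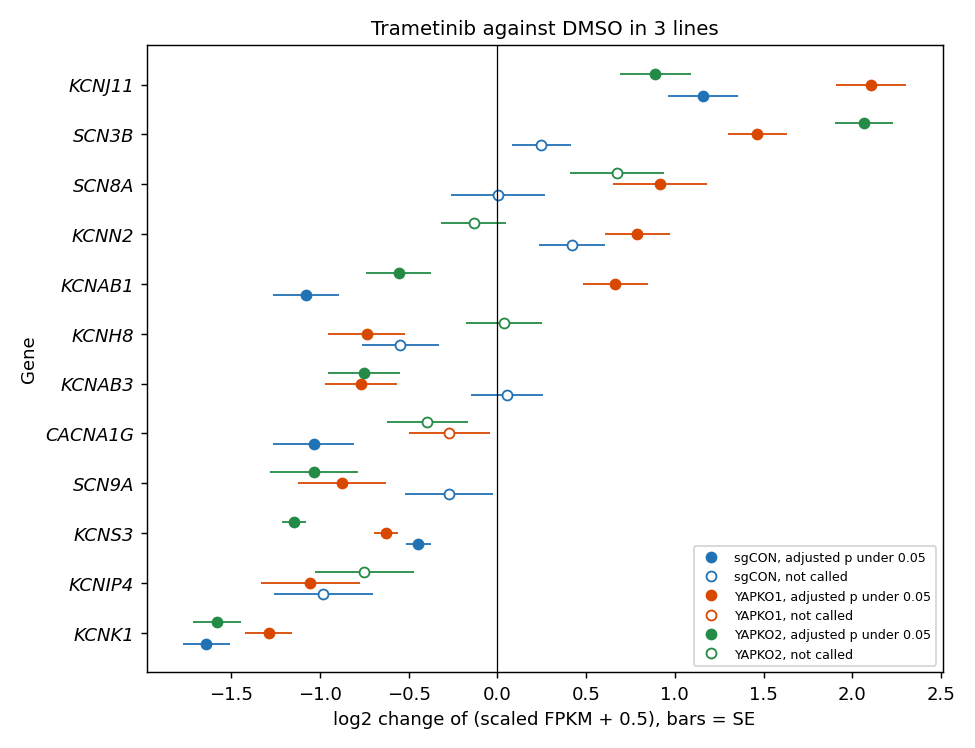
Log2 change with trametinib (bars = SE) of the 12 channel genes called in at least 1 line, with filled points for an adjusted p under 0.05. KCNK1 lies between -1.64 and -1.29 in all 3 lines, KCNS3 shifts from -0.45 in sgCON to -1.14 in YAPKO2, and KCNAB1 lies on both sides of 0.

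The knockout lines were compared with sgCON in DMSO, which asks how channel RNA differs where YAP1 was targeted. The 2 comparisons share the sgCON libraries. In YAPKO1 12 of 46 channel genes were called (26.1%, against 12.0% of all genes): 7 were higher (6.32% of all genes) and 5 lower (5.70%). In YAPKO2 17 were called (37.0%, against 27.0%): 8 were higher (14.2% of all genes) and 9 lower (12.9%). The median change was 0.15 in YAPKO1 and 0.03 in YAPKO2, against 0.00 and 0.02 over all genes. KCNAB1, KCNK1, SCN4A, SCN9A and CACNG4 were lower in both lines, and KCNS3, KCNJ11, KCNN2, SCN3B and CACNG7 higher in both. Epithelial keratins moved the same way as the lowered genes: KRT18 was at 14.9 ± 0.712 in sgCON against 2.17 ± 0.875 and 0.673 ± 0.0968 in the knockout lines, while the neuroblast markers summed to 313 to 329 in sgCON, 413 to 544 in YAPKO1 and 433 to 474 in YAPKO2, without overlap with sgCON. In parental cells the epithelial markers were also low, with a sum of 3.64 to 4.54 against 16.0 to 17.8 in sgCON DMSO. There KCNK1 and SCN4A were lower than in sgCON, while KCNAB1 was higher. SCN9A stood at 74.9 in parental cells against 54.7 in sgCON, a difference not called without the GC correction. The part of these epithelial and neuroblast markers in the results was not tested.

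KCNAB1 had the largest difference in YAPKO1, at 0.749, 0.747 and 0.771 against 9.29, 9.56 and 10.1 in sgCON, and stood at 4.53, 2.90 and 3.85 in YAPKO2. The change was -3.01 ± 0.18 for YAPKO1 (limma adjusted p = 6.97e-09) and -1.27 ± 0.18 for YAPKO2 (adjusted p = 7.55e-05). Neither knockout line overlapped sgCON, nor did they overlap each other. KCNK1 was lower too, by -0.58 ± 0.13 (limma adjusted p = 0.00861) and -1.36 ± 0.13 (adjusted p = 8.98e-07), from 26.6 ± 1.38 in sgCON to 17.7 ± 1.57 and 10.1 ± 1.22. Each of these 4 calls held in every setting tried.

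KCNMA1, the pore of the large-conductance calcium-activated BK channel, was near 0 in YAPKO2. It stood at 2.37, 1.67 and 2.37 in sgCON DMSO, at 1.95, 1.48 and 1.90 in YAPKO1 and at 0.110, 0.266 and 0.0208 in YAPKO2. The YAPKO2 libraries lay far below the others while those of YAPKO1 overlapped sgCON, with a change of -2.07 ± 0.18 (limma adjusted p = 2.01e-07), or -3.39 ± 0.32 at a pseudocount of 0.1, against -0.21 ± 0.18 in YAPKO1. With trametinib it remained at 0.208, 0.119 and 0.0949 in YAPKO2. Its auxiliary subunit KCNMB4 was called in none of the 9 comparisons made, with group means of 2.57 to 3.53.

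Among the potassium channels that were higher, KCNJ11 stood at 2.26 ± 0.390 in YAPKO1 and 3.70 ± 0.350 in YAPKO2 against 1.07 ± 0.454 in sgCON. The changes were 0.84 ± 0.20 (limma adjusted p = 0.0097) and 1.45 ± 0.20 (adjusted p = 4.27e-05), and without sgCON DMSO replicate 1 the YAPKO1 call was lost (adjusted p = 0.0573). ABCC8 was higher as well, by 1.07 ± 0.22 and 0.87 ± 0.22 (adjusted p = 0.00342 and 0.00755), or 2.37 ± 0.44 and 2.06 ± 0.44 at a pseudocount of 0.1. Every library in these ABCC8 comparisons lay under an FPKM of 1, and the gene was tested through other groups. KCNS3 was higher by 0.39 ± 0.07 (limma adjusted p = 0.00114) and 0.55 ± 0.07 (adjusted p = 1.6e-05). The YAPKO1 calls of KCNJ11 and KCNS3 were also lost when only the libraries compared were fitted. KCNN2 was higher by 0.65 ± 0.18 and 0.77 ± 0.18, the YAPKO1 call being lost without sgCON DMSO replicate 1 or 3 or YAPKO1 DMSO replicate 2 or 3 (adjusted p up to 0.136).

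KCNH2 and KCNH1, 2 EAG-family channels, were called in YAPKO2 and not in YAPKO1. KCNH2 was at 19.2, 16 and 16 in sgCON and at 27.4, 33.3 and 28.8 in YAPKO2, a change of 0.79 ± 0.16 (limma adjusted p = 0.00152). The groups did not overlap, and its transcript has 66.8% GC: with the GC correction the change was 0.51 ± 0.08 (adjusted p = 0.000107). In YAPKO1 the change of KCNH2 was 0.49 ± 0.16 (adjusted p = 0.0553), and 0.30 ± 0.08 (adjusted p = 0.012) with the correction. KCNH1 was at 0.563 ± 0.0662 in sgCON and 1.42 ± 0.0973 in YAPKO2 (0.86 ± 0.20, adjusted p = 0.00512), and its change was 0.32 ± 0.20 in YAPKO1. In a direct comparison of the lines neither gene was among the 5 called.

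Some potassium channel calls were fragile. In YAPKO1 the higher levels of KCNG1 (0.65 ± 0.17) and KCNK2 (0.44 ± 0.14) each ended when single libraries were left out. KCNG1, a silent subunit, lost its call without any sgCON library or without YAPKO1 DMSO replicate 3 (limma adjusted p up to 0.0914), and KCNK2 without any YAPKO1 library or without sgCON replicate 1 or 3 (up to 0.174). With the GC correction KCNK2 was also higher in YAPKO2, by 0.45 ± 0.12 (adjusted p = 0.00735) in place of 0.08 ± 0.14, and so was the sodium-activated KCNT2, by 0.94 ± 0.15 (adjusted p = 0.000149) in place of 0.41 ± 0.20. In YAPKO2 KCNH8 was lower by -0.78 ± 0.22, with the call lost without sgCON or YAPKO2 DMSO replicate 2 (adjusted p up to 0.0634). KCNIP4 (-0.88 ± 0.28) and KCNC4 (0.50 ± 0.18) were called in YAPKO2, but were -0.36 ± 0.18 (adjusted p = 0.143) and 0.38 ± 0.16 (adjusted p = 0.0862) with the GC correction. Leaving out single libraries raised their adjusted p to as much as 0.144 and 0.145, with the KCNIP4 call kept only without YAPKO2 replicate 1 and the KCNC4 call only without sgCON replicate 3.

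SCN9A was at 55.3, 54.4 and 54.3 in sgCON, 26.8, 24.8 and 15.2 in YAPKO1 and 29.3, 17.6 and 26.8 in YAPKO2. Both lines lay below sgCON without overlap, by -1.32 ± 0.25 (limma adjusted p = 0.00181) and -1.17 ± 0.25 (adjusted p = 0.00231). With the GC correction the changes were -1.05 ± 0.11 (adjusted p = 2.44e-06) and -0.71 ± 0.11 (adjusted p = 8.1e-05). SCN4A, best known as the sodium channel of skeletal muscle, was at 5.32, 7.21 and 5.30 in sgCON against 1.91, 2.44 and 2.59 in YAPKO1 and 1.45, 2.98 and 2.05 in YAPKO2. Its changes were -1.19 ± 0.20 (limma adjusted p = 0.000709) and -1.30 ± 0.20 (adjusted p = 0.000144), with no overlap and both calls kept in every setting tried. The 5 muscle markers listed summed to 5.55 to 7.19 in sgCON DMSO, 13.4 to 21.7 in YAPKO1 DMSO and 5.62 to 7.06 in YAPKO2 DMSO.

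The low SCN3B was above its sgCON value of 0 in both lines, by 0.53 ± 0.17 for YAPKO1 (limma adjusted p = 0.0463) and 0.96 ± 0.17 for YAPKO2 (adjusted p = 0.00044). No library in these comparisons reached an FPKM of 1 for SCN3B. It was tested, and is counted among the calls, only because the treated knockout libraries did. The YAPKO1 call ended without any 1 of the 6 libraries compared (adjusted p up to 0.126), while at a pseudocount of 0.1 the changes were 1.68 ± 0.34 and 2.51 ± 0.34. Among calcium channel genes, CACNG4 was at 12.5, 12.3 and 11.6 in sgCON, 6.47, 7.23 and 7.86 in YAPKO1 and 6.24, 7.04 and 4.76 in YAPKO2. CACNG7 went the other way, at 1.64, 1.75 and 1.14 against 4.80, 3.24 and 4.22 in YAPKO1 and 4.02, 3.08 and 3.19 in YAPKO2. These 2 gamma subunits thus moved in opposite directions without overlap in either line: CACNG4 by -0.72 ± 0.15 (limma adjusted p = 0.00496) and -0.97 ± 0.15 (adjusted p = 0.000188), and CACNG7 by 1.19 ± 0.22 (adjusted p = 0.00178) and 0.97 ± 0.22 (adjusted p = 0.00412). CACNB2, a beta subunit, was lower in YAPKO2 (-0.65 ± 0.23), but by -0.31 ± 0.19 (adjusted p = 0.237) with the GC correction and with the call lost without sgCON replicate 1 or YAPKO2 replicate 2 or 3 (adjusted p up to 0.134). CACNA2D1 was called with the GC correction in both lines, at 0.84 ± 0.18 (adjusted p = 0.0028) in place of 0.55 ± 0.31 and at 0.51 ± 0.18 (adjusted p = 0.0386) in place of 0.00 ± 0.31. In YAPKO2 CACNA1G was called with it as well, at -0.73 ± 0.22 (adjusted p = 0.0192) in place of -0.49 ± 0.23.

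**Figure D5:**
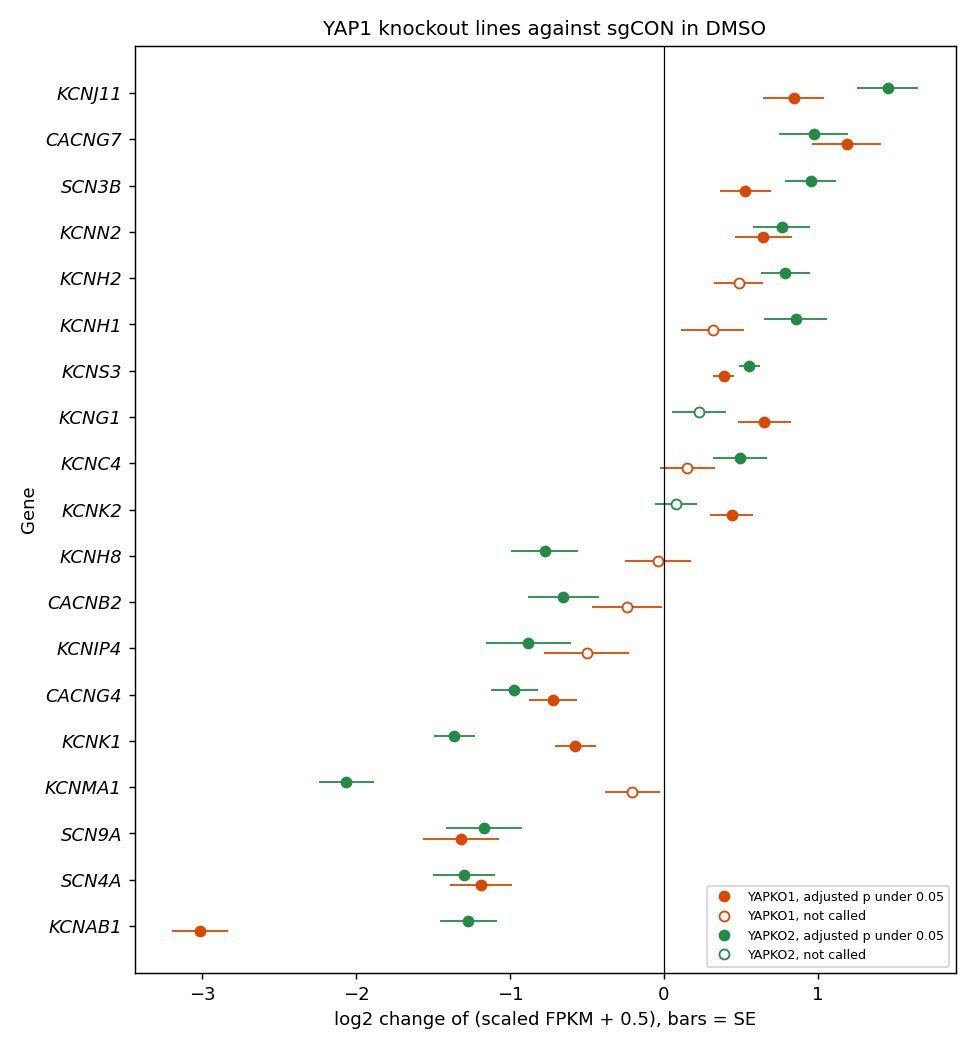
Log2 change in DMSO of YAPKO1 and of YAPKO2 against sgCON (bars = SE) for the 19 channel genes called in at least 1 of the lines, with filled points for an adjusted p under 0.05. KCNAB1 is lowest in YAPKO1 at -3.01, KCNMA1 in YAPKO2 at -2.07, and KCNJ11, CACNG7 and SCN3B lie above 0 in both.

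YAPKO2 and YAPKO1 were also compared directly in DMSO, where 5 channel genes were called (10.9%, against 6.95% of all genes). In YAPKO2 1 was higher (3.71% of all genes) and 4 were lower (3.24%). KCNAB1 was higher in YAPKO2 by 1.74 ± 0.18 (limma adjusted p = 6.85e-06). KCNMA1 was lower by -1.86 ± 0.18 (adjusted p = 2.26e-06) and KCNK1 by -0.79 ± 0.13 (adjusted p = 0.000965), and these 3 calls held in every setting tried. At a pseudocount of 0.1 the KCNMA1 difference was -3.15 ± 0.32. CACNA1G (-0.87 ± 0.23, limma adjusted p = 0.0246) and KCNH8 (-0.74 ± 0.22, adjusted p = 0.0477) were also lower, but without the 3 libraries whose GC trend stood above their groups they were at -0.60 ± 0.27 (adjusted p = 0.192) and -0.83 ± 0.28 (adjusted p = 0.0839). The CACNA1G call also ended without replicate 1 or 3 of YAPKO1 DMSO or replicate 1 or 2 of YAPKO2 DMSO (adjusted p up to 0.13), and the KCNH8 call without any of these 6 libraries except replicate 3 of YAPKO1 DMSO (up to 0.212).

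Whether the trametinib response itself differed from that of sgCON was tested with an interaction term for each knockout line. In YAPKO1 2 channel genes were called (4.3%, against 0.247% of all genes), both upward (0.198% of all genes) and 0 downward (0.0494%), where 1 had an unadjusted p under 0.05. In YAPKO2 2 were called (4.3%, against 4.83%), 1 upward (1.84% of all genes) and 1 downward (2.99%). KCNAB1 differed in YAPKO1 by 1.74 ± 0.26 (limma adjusted p = 0.00733): it fell in sgCON and did not fall in YAPKO1, where its DMSO level was 0.755. Fitting only the 4 groups compared ended this call. SCN3B differed in YAPKO1 by 1.22 ± 0.23 (adjusted p = 0.0362), a call that ended when any 1 of the 12 libraries was left out (adjusted p 0.0629 to 0.107). SCN3B, 1 of the 2 genes counted in YAPKO1, passed the threshold for testing only through the treated knockout libraries. It differed in YAPKO2 by 1.82 ± 0.23 (adjusted p = 0.0002), and KCNS3 in YAPKO2 by -0.70 ± 0.10 (adjusted p = 0.000349), both calls being kept in every setting tried. At a pseudocount of 0.1 SCN3B differed in YAPKO1 by 1.37 ± 0.48 (limma adjusted p = 0.426). In YAPKO2 SCN3B then differed by 1.74 ± 0.48 (adjusted p = 0.0458), the sgCON values lying below the pseudocount of 0.5.

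For the other genes that responded, the difference between lines was not called. KCNJ11 had differences of 0.95 ± 0.28 for YAPKO1 (limma adjusted p = 0.269) and -0.27 ± 0.28 for YAPKO2, and ABCC8 of 1.27 ± 0.31 (adjusted p = 0.13) and 0.90 ± 0.31 (adjusted p = 0.123). SCN9A, called with trametinib in the knockout lines and not in sgCON, had a difference of -0.76 ± 0.35 in YAPKO2 (adjusted p = 0.29), and of -0.75 ± 0.15 (adjusted p = 0.00351) with the GC correction. CACNA1G, called in sgCON alone, had differences of 0.76 ± 0.32 in YAPKO1 (adjusted p = 0.569) and 0.64 ± 0.32 in YAPKO2 (adjusted p = 0.332).

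The sgCON line also differed from parental NLF, though line and culture cannot be told apart in this comparison. Of the 46 genes 12 were called (26.1%, against 15.8% of all genes): 7 were higher in sgCON DMSO (7.82% of all genes) and 5 lower (7.96%). KCNAB1 was at 34.7, 28.2 and 32.1 in parental cells against 9.29, 9.56 and 10.1 in sgCON, a change of -1.66 ± 0.18 (limma adjusted p = 9.69e-06). KCNMA1 (-1.09 ± 0.18), KCNH8 (-1.17 ± 0.22) and SCN2A (-0.93 ± 0.18) were lower too, and these 4 genes did not overlap between the lines. CACNA1H was the largest rise, from 5.05, 6.34 and 4.72 to 13.2, 11.8 and 12.4 (1.15 ± 0.14, adjusted p = 2.05e-05), again without overlap.

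Other rises included KCNK5 (0.96 ± 0.20), KCNJ11 (0.93 ± 0.20, or 1.48 ± 0.25 at a pseudocount of 0.1), SCN4A (0.74 ± 0.20), KCNS3 (0.56 ± 0.07) and KCNK1 (0.54 ± 0.13). The calls of SCN4A and KCNK1 ended without single libraries, with limma adjusted p of up to 0.0946 and 0.0557. The libraries were parental replicates 1 and 2 and sgCON replicate 2 for SCN4A, and parental replicate 3 for KCNK1. KCNAB1 and KCNMA1 thus stood lower in sgCON than in parental cells and lower again in a knockout line, whereas KCNK1 and SCN4A were higher in sgCON than in parental cells and lower in both knockout lines than in sgCON. Culture time of the parental cells is uncertain from the labels, so line and culture cannot be told apart here.

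Genes whose products bind or regulate these channels were followed as a list of 41, of which 26 were tested. The list was chosen with earlier results of these data known. Its shares of calls thus do not show a change particular to channel partners. With trametinib 2 rose and 5 fell in sgCON (26.9%, against 5.17% of all genes), 2 rose and 4 fell in YAPKO1 (23.1%, against 7.87%), and 6 rose and 5 fell in YAPKO2 (42.3%, against 20.0%). Of all genes, 2.30% rose and 2.87% fell in sgCON, 4.08% and 3.79% in YAPKO1, and 8.88% and 11.1% in YAPKO2. FGF14, an intracellular factor that binds sodium channel alpha subunits, fell in all 3 lines by -0.90 ± 0.18, -0.82 ± 0.18 and -0.86 ± 0.18. ORAI3, a store-operated calcium channel, rose in YAPKO1 (0.74 ± 0.16) and YAPKO2 (1.53 ± 0.16), and GEM, a GTPase that inhibits calcium channels, fell in sgCON (-0.81 ± 0.15) and YAPKO2 (-0.93 ± 0.15).

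In the DMSO comparison of YAPKO1 with sgCON 4 of the 26 partners were higher and 3 lower (26.9%, against 12.0% of all genes). For YAPKO2 the counts were 7 and 7 (53.8%, against 27.0%). NALCN, the sodium leak channel, was at 1.40, 0.995 and 1.86 in sgCON and at 0, 0.313 and 0.101 in YAPKO1 and 0.180, 0.123 and 0.114 in YAPKO2. It was lower without overlap in both lines, by -1.59 ± 0.27 (limma adjusted p = 0.000808) and -1.56 ± 0.27 (adjusted p = 0.000462). FGF13, which like FGF14 binds sodium channels, was higher by 1.00 ± 0.11 and 0.94 ± 0.11, and FGF14 was lower in YAPKO2 by -1.08 ± 0.18, or by -0.57 ± 0.21 (limma adjusted p = 0.0458) with the GC correction. STAC, an adaptor of voltage-gated calcium channels, was higher in both lines by 0.86 ± 0.09 and 0.74 ± 0.09.

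Promoter letters were examined for the 31 of 46 genes with a RefSeq window, 62 windows in all. A match on either strand to the TEAD core GGAATG was in 5 windows (8.1%), against 14% of all 35116 windows. The AP-1 motif TGANTCA was in 6 windows (9.7%, against 7.7%) and the E-box CACGTG in 4 (6.5%, against 7.3%). The ETS motif CCGGAAGT was in 0 windows, against 4.1%, and the left arm of the REST motif, TTCAGCACC, in 0, against 0.4%. Windows of 1 gene overlap in part, and a match or its absence describes only these letters in this window. The windows printed above belong to KCNK1, with no match, to KCNAB1, with an E-box next to the start, and to KCNMA1, with a pair of AP-1 matches 12 bases apart.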

How the data were processed

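Total RNA of 21 NLF libraries was sequenced with a stranded, rRNA-depleted kit, per the labels' protocols. The authors deposited FPKM in 2 tables; per the submitters' processing notes, reads were processed with STAR 2.4.2 and RSEM 1.3.0 on hg19. Whether the counting used strand is not given in the sources used here. One table equals the other multiplied by a single factor for each library (0.927 to 1.075). Parental columns are headed by treatment and replicate only. The labels give 0.01% DMSO and the series text 0.1%.

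Each library was scaled by a median-ratio factor. Of 57820 genes, 16194 reached an FPKM of 1 in 3 or more libraries and were tested. A gene could thus be tested in a comparison whose own libraries did not reach this threshold. In fits of only the groups compared such a gene was absent, and its call is not counted as lost there. The value log2(FPKM + 0.5), which understates changes of low genes, was fitted with limma 3.58.1 (R 4.3.3), group means, all 21 libraries in one fit and a variance trend, with two-sided tests adjusted over all kept genes in 9 comparisons. The script was tested on simulated data. Transcript GC content came from GENCODE v29, and promoters from RefSeq GRCh38.p14. Replicates are not stated to be separate cultures, so p-values cover only how these samples vary, which may be technical. Same-numbered libraries did not deviate together (median r -0.006 over 63 pairs), so replicate numbers were not used as pairs. Members and lists were chosen with earlier results of these data known. Named genes were YAP1, up to 6 called rises and falls per comparison with the largest change and no overlap of groups, up to 3 members per family with the highest level, and up to 4 called partner genes per comparison. Some members and partners are counted but not reported here by name.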

Additional observations from a re-analysis of the deposited data

Results flagged for a closer look

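The trametinib response of 3 channel genes differed between a knockout line and sgCON by the interaction term of limma. KCNAB1 differed in YAPKO1 by 1.74 ± 0.26 on the log2 scale. SCN3B differed by 1.22 ± 0.23 in YAPKO1, where the call ended when any 1 of 12 libraries was left out, and by 1.82 ± 0.23 in YAPKO2. At a pseudocount of 0.1 the limma adjusted p of SCN3B was 0.426 in YAPKO1 and 0.0458 in YAPKO2. SCN3B passed the threshold for testing only through the treated knockout libraries. KCNS3 differed in YAPKO2 by -0.70 ± 0.10.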

How the results depend on the processing

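Of 73 calls of a channel gene in a comparison, 42 held under every alternative in which the gene was fitted, and 0 changed direction. When only the groups compared were fitted 19 were lost, 14 without the filter and 10 without the 3 libraries whose GC trend stood above their groups. With trametinib, sgCON gave 10 called genes with GC correction, 11 with GC correction and replicate block and 9 with only the groups compared (5 as reported). YAPKO1 gave 6 with no filter and 4 with only the groups compared (11 as reported). YAPKO2 gave 11, 13, 13 and 3 with no filter, GC correction, GC correction with block and only the groups compared (7 as reported). YAPKO1 against sgCON gave 6 with only the groups compared (12 as reported), and YAPKO2 against YAPKO1 gave 10, 9 and 3 with GC correction, GC correction with block and only the groups compared (5 as reported). The response difference in YAPKO1 gave 1 call with a pseudocount of 0.1, the calibrated table, quantile normalization, the replicate block, GC correction with block or without the 3 libraries, and 0 by limma with only the groups compared, where 8 had an unadjusted p under 0.05. In YAPKO2 it gave 4 with GC correction, with or without the block. The replicate block alone lost 10 calls and moved no other count of calls by over 1.5 times. Leaving out 1 library gave 4 to 5 calls with trametinib in sgCON, 5 to 9 in YAPKO1 and 6 to 12 in YAPKO2, 7 to 12 and 13 to 16 for the knockout lines, 3 to 5 between them, 1 and 2 to 4 for the response differences, and 9 to 12 against parental cells. Shares of all genes called under these alternatives are not given here, so the counts do not show a change particular to channel genes. Depth is unknown, so genes under an FPKM of 1 have the least certain changes.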
